A study of Mus musculus with 6 samples.

Results

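The genes described here encode the histones, the proteins around which DNA is wrapped in chromatin. They were taken by name from a table of 48321 gene names. A first rule took 69 replication-dependent genes, whose older symbols begin with Hist1, Hist2, Hist3 or Hist4, and a second took 18 replacement variants, whose symbols begin with H1f, H2af or H3f3, so that 87 names were kept in all. By type the replication-dependent class held 6 genes of the linker histone H1, 20 of H2A, 18 of H2B, 12 of H3 and 13 of H4. The replacement class held 4 H1, 10 H2A and 4 H3 names. Most members code for a protein in the GENCODE M21 annotation, but Hist1h2aj, Hist1h2al, H2afy3 and H3f3c are annotated there as pseudogenes, and H3f3aos is an antisense RNA that the naming rule also caught.

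The study asked how AKT and mTOR respond to palmitic acid in beta cells. RNA was extracted with Trizol from pancreatic islets, the clusters of hormone-secreting cells of the pancreas, of wild-type C57BL6 mice on normal chow or on a high-fat diet. The high-fat diet drew 60% of its energy from fat and was begun at 3 months of age and kept up for 4 months. The age and feeding time of the chow mice are not given separately, and the labels do not say whether each sample came from its own animal. Each diet had 3 samples, but the values of chow replicate 2 were, for every gene name, the average of those of chow replicates 1 and 3, so 5 libraries were compared, 2 chow and 3 high-fat.

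Replication-dependent histone genes sit in clusters, are switched on when cells copy their DNA, and give mRNAs that end in a short stem-loop in place of the poly(A) tail carried by other mRNAs. The stem-loop is bound by SLBP, and the transcript is cut just after it by a complex that includes the U7 small RNA. Replacement variants are transcribed throughout the cell cycle and carry poly(A) tails, and they supply histones to cells that have stopped dividing, as most adult islet cells have. Some replication-dependent genes also give polyadenylated transcripts that run past the stem-loop. A library made by capture of poly(A) tails therefore holds little of the stem-loop class, while a library made from total RNA holds it, which is why the classes are set side by side here. No source used here says how the libraries were prepared.

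The stem-loop is the sequence that sets the classes apart, and it is shown here for members on which the results turn. It was searched in the annotated transcripts by its known 16-base consensus. A match was found in 46 of 69 replication-dependent genes (66.7%), in 1 of 18 replacement variants (5.56%, H2afx) and in 21 of 21795 other protein-coding genes (0.0964%). Of the 23 replication-dependent genes with no match, 13 have no untranslated region in the annotation, so that the stretch was not searched there. Each line gives the 16-base stem-loop in capitals with 5 bases on either side, 5′ to 3′ on the gene's strand, from GENCODE M21, and the GRCm38 position of the capitals. The first 4 belong to genes that were far higher in the high-fat libraries, the next 2 to genes with a smaller difference that passed the test, and the last 4 to genes that did not pass it.
Hist1h4h, chr13:23531458-23531473, plus strand: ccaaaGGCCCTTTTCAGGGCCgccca
Hist1h4d, chr13:23581950-23581965, plus strand: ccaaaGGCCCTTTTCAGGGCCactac
Hist1h1e, chr13:23621782-23621797, minus strand: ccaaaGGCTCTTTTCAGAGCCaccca
Hist1h3e, chr13:23561903-23561918, minus strand: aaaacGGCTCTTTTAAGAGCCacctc
Hist2h2aa2, chr3:96239784-96239799, minus strand: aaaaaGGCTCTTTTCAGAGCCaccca
Hist1h2be, chr13:23585531-23585546, minus strand: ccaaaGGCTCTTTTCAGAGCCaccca
Hist1h1c, chr13:23739512-23739527, plus strand: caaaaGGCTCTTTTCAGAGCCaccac
Hist3h2a, chr11:58955172-58955187, plus strand: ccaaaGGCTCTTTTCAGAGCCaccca
Hist3h2ba, chr11:58949349-58949364, plus strand: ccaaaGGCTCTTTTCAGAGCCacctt
H2afx, chr9:44335240-44335255, plus strand: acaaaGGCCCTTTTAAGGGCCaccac
The form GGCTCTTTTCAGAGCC was carried by 26 members, among them both Hist1h1e, which was far higher on the high-fat diet, and Hist1h1c, which was not called different. The form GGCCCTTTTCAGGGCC was carried by 7 members, all of them H4 genes. The form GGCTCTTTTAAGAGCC was carried by 6 members, including Hist1h3e and Hist1h3f. The same form thus occurred in a gene called different between the diets and in a gene that was not. The likeness of the forms across members was set by the search, which took only sequences that fit the consensus.

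Promoters were matched in RefSeq (GRCm38.p6) for 61 replication-dependent genes and 14 replacement variants, as windows from 250 bases before to 50 bases after the start. Each motif was counted on both strands, and a stretch could count toward more than 1 motif. TATAAA, the TATA box, was present in 34 of 61 replication-dependent promoters (55.7%), in 0 of 14 replacement promoters and in 14.2% of all 27025 promoters. CCAAT, the box bound by NF-Y, was in 52 of the 61 (85.2%), in 9 of the 14 (64.3%) and in 37.9% of all. It was present in every matched H1, H2A, H2B and H3 promoter of the replication-dependent class but in 3 of 12 H4 promoters. AAACACA, known from H1 promoters, was in 4 of 5 H1 promoters and in 7.14% of all, and ATTTGCAT, the octamer bound by Oct proteins, was in 7 of 18 H2A and 6 of 16 H2B promoters and in 1.75% of all. The promoters of 3 genes are shown because a pair of H1 genes that both hold AAACACA and CCAAT differed in level between the diets to very unequal extents, and because Hist1h4d had the largest log2 difference of the class. Each is the 250 bases before the start, 5′ to 3′ on the gene's strand, with the TATA box, the CCAAT box (ATTGG on the other strand) and the motif AAACACA in capitals.
Hist1h1e, chr13:23622559-23622808, minus strand: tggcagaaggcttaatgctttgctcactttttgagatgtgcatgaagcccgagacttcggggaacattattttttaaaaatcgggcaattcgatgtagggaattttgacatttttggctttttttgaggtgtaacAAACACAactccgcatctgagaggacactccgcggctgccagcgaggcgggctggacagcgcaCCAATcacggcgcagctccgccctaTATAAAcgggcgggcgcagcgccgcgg
Hist1h1c, chr13:23738557-23738806, plus strand: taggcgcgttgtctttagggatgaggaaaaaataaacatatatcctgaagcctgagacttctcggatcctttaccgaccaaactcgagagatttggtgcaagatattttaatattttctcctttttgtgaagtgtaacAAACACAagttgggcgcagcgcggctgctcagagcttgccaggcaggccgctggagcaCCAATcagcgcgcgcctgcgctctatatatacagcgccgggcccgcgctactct
Hist1h4d, chr13:23581318-23581567, plus strand: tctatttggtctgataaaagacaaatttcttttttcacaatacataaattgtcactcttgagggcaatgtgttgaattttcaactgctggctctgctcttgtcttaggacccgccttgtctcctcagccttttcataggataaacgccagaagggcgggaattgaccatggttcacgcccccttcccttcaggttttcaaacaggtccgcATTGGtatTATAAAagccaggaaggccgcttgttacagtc
Hist1h1e and Hist1h1c each hold AAACACA and CCAAT, and of this pair TATAAA was matched in Hist1h1e. A match is a description of the letters and not a measured binding site.

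Expression was given as CPM, the reads of a gene as a share of all reads of its library on a common scale, and the deposited values were CPM plus 1. From the smallest step between values the libraries held an implied 18.8 to 35.0 M reads, so that 3 reads, taken as the floor of detection, were worth 0.0856 to 0.16 CPM, which covers counting error only. Beta cell markers made up 6.78% and 11.8% of the summed CPM in chow against 9.04%, 11.4% and 9.88% in the high-fat libraries, with none of the 8 at 0. Markers of acinar cells, the enzyme-secreting cells around islets, varied widely, at 22.3% and 8.60% in chow and at 10.04%, 1.36% and 4.00% on the high-fat diet. The 6 fibroblast markers summed to 203 and 98.8 CPM in chow and to 25.9, 30.2 and 54.99 CPM on high fat. Of these, 5 were called lower in the test described below, where 8.78% of all genes tested fell and 14.9% rose. In the same test Mafa, Pdx1 and G6pc2, 3 of the 8 beta cell markers, were called higher. Sox9 of the ductal and Hbb-bs of the blood markers were also called higher, and Spp1 (ductal) and Pecam1 (endothelial) lower. None of the 15 acinar or 6 other endocrine markers was called. Since these are bulk samples, fewer cells of a type and less RNA per cell cannot be told apart.

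Replication-dependent histone RNA was 2.77-fold higher in the high-fat libraries, and replacement variant RNA was nearly level. The 69 replication-dependent genes summed to 178 and 184 CPM in chow replicates 1 and 3, and to 480, 514 and 510 CPM in high-fat replicates 1, 2 and 3, the order kept for all values that follow. The means were 181 ± 3.79 CPM (SD, n = 2) and 501 ± 18.5 CPM (SD, n = 3). Every high-fat library lay far above both chow libraries, by 2.61 to 2.88 times over the pairs of libraries. The 18 replacement variants summed to 442 and 425 CPM in chow and to 455, 461 and 506 CPM on high fat, a 1.09-fold difference that turned to lower, at -0.28 and -0.07 on the log2 scale, when library totals were taken without acinar and insulin genes or without RNAs that lack a poly(A) tail and replication-dependent histones. These groups did not overlap either, but the gap between them was smaller than the range within the high-fat diet. Most of the difference between the class means came from the pseudogene H2afy3. It gave 0.839 and 2.01 CPM of the chow sums and 21.9, 24.1 and 54.5 CPM of the high-fat sums. The first of those scalings moved the median log2 difference of all genes tested from 0.05 to -0.29 and the second to -0.11, and the replication-dependent sum stayed higher under both, by 1.06 and 1.27.

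Put as a ratio within each library, which no rescaling of libraries can alter, the replication-dependent class stood at 40.3% and 43.2% of the replacement class in chow and at 106%, 111% and 100.9% on the high-fat diet. The log2 difference of the class sums was 1.47 for the replication-dependent genes and 0.13 for the replacement variants, so that the classes differed by 1.34. Leaving out 1 library at a time moved that difference from 1.29 to 1.39. No p-value is given for a class, since its members share sequence and were chosen with earlier results known.

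**Figure D1:**
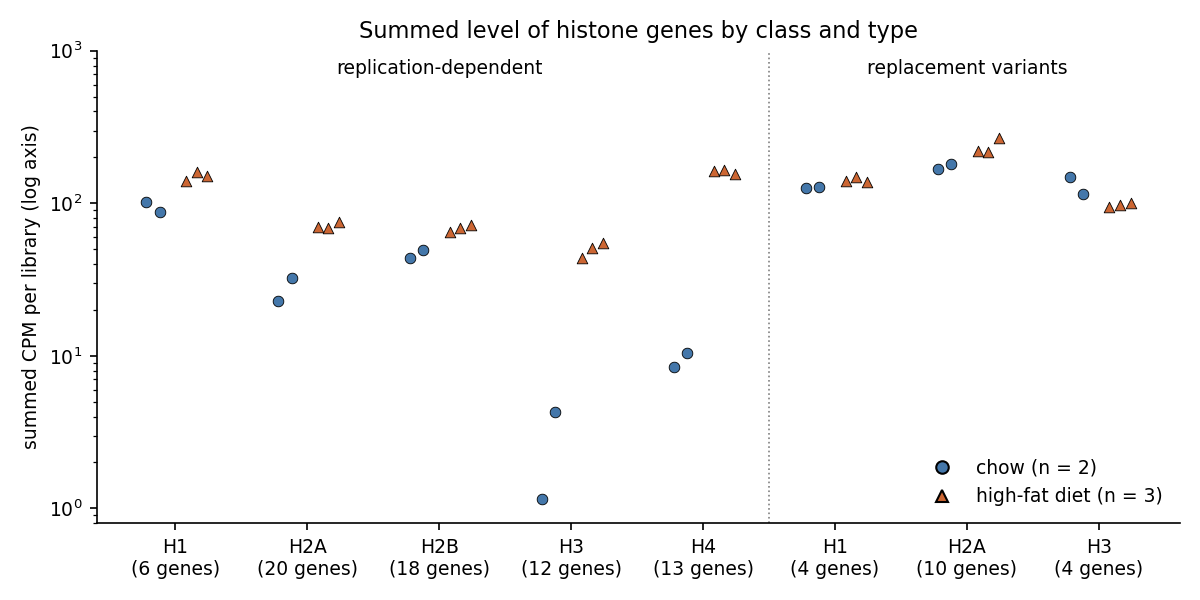
Summed CPM of the histone genes in each library (log axis), by class and histone type, with 1 point per library (circles, 2 chow; triangles, 3 high-fat). Replication-dependent H3 and H4 stand far higher in the 3 high-fat libraries, while the replacement variants lie close together, with H3 variants lower on the high-fat diet.

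Most of the difference in the replication-dependent sum lay in genes that were low in chow. In chow 8 of the 69 genes had a mean of 2 CPM or more, and these carried 93.1% and 90.2% of the class sum there, against 44.0%, 43.0% and 43.2% on the high-fat diet. Their own sum was 166 CPM in each chow library and 211, 221 and 221 CPM on high fat, a 1.31-fold difference that went to -0.02 on the log2 scale with totals without acinar and insulin genes. The other 61 genes summed to 12.4 and 17.9 CPM in chow and to 269, 293 and 290 CPM on high fat, an 18.8-fold difference. These subsets were cut at a chow level after the values were known, so their folds are descriptions. The 8 genes have longer annotated models, with a median of 1358 exonic bases against 520 for the other 61.

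Detection moved in the same direction. Of the 69 genes, 41 and 49 were above 0 in the chow libraries, against 59, 65 and 66 in the high-fat libraries. At 3 reads or more there were 27 and 32 in chow and 52, 61 and 60 on the high-fat diet. A level of 1 CPM or more was met by 11 and 15 genes in chow and by 34, 40 and 43 on the high-fat diet. Of the 69, 16 were at 0 in both chow libraries, and 2 of these 16, Hist1h2ai and Hist1h2aj, were at 0 in all 5. Over all gene names 27982 and 29313 were above 0 in chow, and 29455, 34507 and 29878 on the high-fat diet. Depth was unequal, at an implied 18.8 and 24.7 M reads in chow and 23.7, 35.0 and 23.5 M on high fat. The counts above 0 and at 3 reads depend on it.

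Gene by gene, the 3 high-fat libraries all lay above both chow libraries for 49 of the 69 replication-dependent genes (71.0%), against 21% of all genes detected in any library. They all lay below for 3 genes (Hist1h2br, Hist2h2be and Hist3h2ba, 4.35%), against 13.5% of all detected genes, and overlapped for 17. Of the 18 replacement names, 5 lay above (27.8%), 2 lay below (11.1%, H2afv and H3f3b) and 11 overlapped. The share above was thus well over the background in the replication-dependent class and near it in the replacement class. No floor of reads was set for these counts, in the members or in all genes. Hist1h2al and Hist1h3g are among the 49, at 0.00059 and 0.0106 CPM in high-fat replicate 1, where a single read was worth 0.0422 CPM.

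A test was run on genes that averaged 0.5 CPM or more across the 5 libraries, which 44 of the 69 replication-dependent genes met. With limma on log2(CPM + 1) and a Benjamini-Hochberg adjusted p under 0.05 over all 16939 genes tested, 34 of the 44 rose and 0 fell on the high-fat diet, where 14.9% of all genes tested rose and 8.78% fell. Of the 44, however, 28 had a chow mean under 0.5 CPM and passed the filter only through their high-fat level, so that they had to be higher, and 25 of the 34 calls are theirs. With no filter on low values 22 of 67 rose, and without chow replicate 1 23 of the 44 did. Of the 16 genes that met 0.5 CPM in chow alone, 9 rose, where 13.5% of all genes tested at that chow level did. The other 25 of the 69 were not tested. They were lowly read H2A and H2B genes for the most part, 13 and 9 of the 25, together with Hist1h1t, Hist1h3g and Hist2h3c1.

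**Figure D2:**
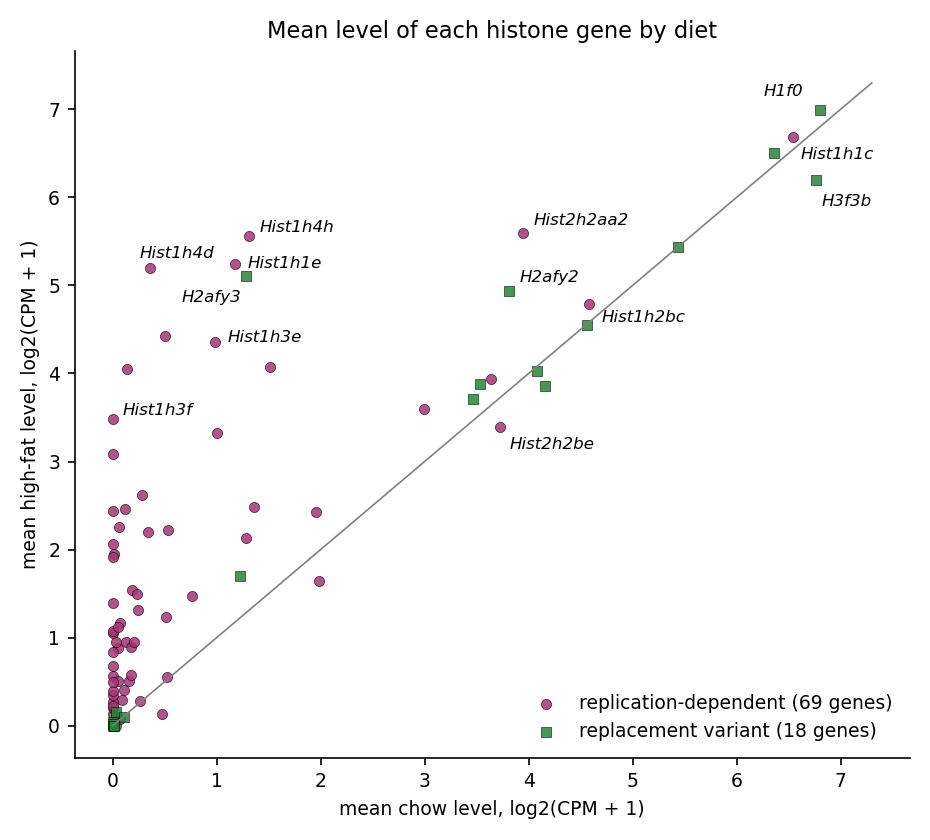
Mean high-fat level against mean chow level of each of the 87 histone genes, both as log2(CPM + 1), with the line of equal levels. Replication-dependent genes (circles) fill the upper left, near 0 in chow, while the replacement variants (squares) follow the line except H2afy3 and H2afy2.

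H4, the core histone whose protein varies least, was higher in every one of its genes. Its 13 genes, which had no replacement gene in the rule, summed to 8.39 and 10.5 CPM in chow and to 163, 165 and 156 CPM on high fat, a 17.1-fold difference. Their share of the replication-dependent sum was 4.71% and 5.72% in chow and 33.9%, 32.1% and 30.6% on the high-fat diet. In all 13 genes the high-fat libraries lay above the chow libraries, and 12 of the 13 rose. Of the 12 calls, 9 are of genes that passed the filter only through their high-fat level, and 46.1% of all genes tested with a chow mean under 0.5 CPM rose.

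Hist1h4h was read at 1.21 and 1.76 CPM in chow and at 48.5, 44.3 and 45.4 CPM on high fat. Its log2 difference was 4.25 ± 0.13 (SE; adjusted p = 2.2e-06), a 31.1-fold difference of means. Per kilobase of annotated exon it was the highest of all 87 genes on the high-fat diet, at 98.1 CPM per kb, against 3.16 in chow. This gene's annotated model ends 46 bases after the stem-loop shown above.

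Hist1h4d was read at 0.315 and 0.256 CPM in chow and at 39.0, 34.3 and 33.6 CPM on high fat. Its log2 difference of 4.83 ± 0.12 (adjusted p = 1.1e-06) was the largest of the 87 genes. Hist1h4c followed the same course, at 0.516 and 0.314 CPM in chow and at 21.3, 21.0 and 19.0 CPM on high fat, a log2 difference of 3.92 ± 0.13 (adjusted p = 4.6e-06). Each of these genes was a trace in both chow libraries and varied little among the high-fat libraries.

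Hist2h4, from the smaller cluster on chromosome 3, was read at 1.36 and 2.34 CPM in chow and at 13.6, 15.6 and 18.2 CPM on high fat (log2 difference 2.57 ± 0.19, adjusted p = 2.7e-04). Hist4h4, which lies alone on chromosome 6, rose from 0.372 and 0.165 CPM to 3.42, 3.76 and 3.58 CPM. The single H4 gene that was not called was Hist1h4i, at 2.46 and 3.32 CPM in chow and at 5.36, 4.31 and 3.44 CPM on high fat (log2 difference 0.46 ± 0.20, adjusted p = 0.137). Per kilobase it was the highest H4 gene in chow, at 3.98 CPM per kb, and its groups nearly met, at 3.32 and 3.44 CPM.

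H3 genes were nearly absent in chow. The 12 replication-dependent H3 genes summed to 1.16 and 4.30 CPM in chow and to 43.9, 50.7 and 54.8 CPM on high fat, an 18.2-fold difference that ran from 10.2 to 47.4 times over the pairs of libraries. Hist2h3c2 made up 0.379 and 2.49 CPM of the chow sums, so this gene alone set much of the spread there. Of 10 H3 genes tested 7 rose, and Hist1h3a, Hist1h3c and Hist2h3c2 were not called. Of the 10, 8 passed the filter only through their high-fat level, and 6 of the 7 calls are theirs, where 46.1% of all genes tested with a chow mean under 0.5 CPM rose. Hist2h3c2, at 3.34, 2.39 and 4.42 CPM on high fat, was called higher once chow replicate 3 was left out (adjusted p = 0.0124).

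Hist1h3e was read at 0.683 and 1.27 CPM in chow and at 20.4, 18.6 and 19.5 CPM on high fat (log2 difference 3.39 ± 0.16, adjusted p = 2.5e-05). Hist1h3f had no whole read in chow and stood at 8.78, 12.3 and 9.34 CPM on high fat (log2 difference 3.46 ± 0.18, adjusted p = 4.0e-05). Hist1h3i, likewise without a whole read in chow, stood at 4.87, 4.31 and 4.05 CPM on high fat. Some values, such as that of Hist1h3f in chow replicate 3, were worth a fraction of 1 read, and of the 31-base words of Hist1h3e and Hist1h3i 84.4% and 93.2% occur in other genes. The level of a single H3 gene is uncertain for that reason. How far the H3 sum is exposed to it was not measured. Of the words of Hist2h3b 80.6% occur in Gm20634, which is not a member.

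The replication-dependent genes of the linker histone H1 differed widely among themselves, with log2 differences from 0.15 to 4.10 over the 5 tested. The 6 replication-dependent H1 genes summed to 102 and 87.2 CPM in chow and to 139, 160 and 151 CPM on high fat, a 1.59-fold difference. Hist1h1c, which codes for H1.2, was per kilobase the highest replication-dependent gene in chow, with 56.1% and 45.8% of the class sum there and 19.8%, 21.7% and 19.6% on the high-fat diet. Its level was 99.995 and 84.1 CPM in chow against 95.3, 112 and 100.1 CPM on high fat, so that the groups overlapped (log2 difference 0.15 ± 0.11, adjusted p = 0.347). Without Hist1h1c the class sum was 78.3 and 99.5 CPM in chow against 385, 402 and 410 CPM on high fat, a 4.49-fold difference.

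Hist1h1e stood at 0.781 and 1.74 CPM in chow and at 36.8, 37.4 and 36.5 CPM on high fat. Its log2 difference was 4.10 ± 0.18 (adjusted p = 1.8e-05), and the high-fat libraries lay within 1 CPM of each other. Its annotated model overlaps that of Hist1h2be on the same strand, so part of its reads may belong to that gene or the reverse. Hist1h1d rose as well, from 0.980 and 1.03 CPM to 6.57, 8.73 and 11.7 CPM (log2 difference 2.29 ± 0.22, adjusted p = 0.00101). Hist1h1a rose from 0.108 and 0.0822 CPM to 0.468, 1.14 and 1.21 CPM, a call lost with no filter or without either chow replicate or high-fat replicate 2 or 3 (adjusted p from 0.0936 to 0.119). The remaining gene tested, Hist1h1b, at 0.0542 and 0.208 CPM in chow against 0.313, 0.746 and 1.5002 CPM on high fat, was not called.

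The H2A genes were intermediate. All 20 summed to 22.7 and 32.4 CPM in chow and to 69.6, 69.1 and 76.0 CPM on high fat, a 2.59-fold difference. Most of it was Hist2h2aa2, at 13.2 and 15.6 CPM in chow and at 47.2, 44.1 and 50.3 CPM on high fat (log2 difference 1.65 ± 0.10, adjusted p = 1.2e-04). All of its 31-base words occur in other annotated genes, so reads cannot be assigned to it alone. All of them occur in Gm20634, which is not a member, so the sum of the pair that follows has the same limit. Summed with its twin Hist2h2aa1 the pair stood at 13.9 and 16.3 CPM in chow and at 48.9, 46.4 and 51.7 CPM on high fat, a 3.25-fold difference. The call of Hist2h2aa1 alone was lost when any 1 library was left out (adjusted p from 0.053 to 0.126).

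Of the 7 H2A genes tested 6 rose, and the one not called was Hist3h2a. Of the 7, 4 passed the filter only through their high-fat level, and 4 of the 6 calls are theirs. Among all genes tested with a chow mean under 0.5 CPM 46.1% rose. Hist3h2a stood at 7.77 and 15.1 CPM in chow and at 14.1, 12.98 and 15.8 CPM on high fat, where the groups overlapped (log2 difference 0.36 ± 0.24, adjusted p = 0.313). Without chow replicate 3, the higher of the chow libraries, it was called higher (adjusted p = 0.0138). Hist2h2ac, in contrast, rose from 0.235 and 0.113 CPM to 1.66, 2.60 and 1.18 CPM, a call lost with no filter (adjusted p = 0.073). Among the 13 H2A genes that were not tested the highest single value was 1.25 CPM, of Hist1h2ao in high-fat replicate 3.

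In summed level the H2B genes differed least of the replication-dependent types. Their median log2 difference over the genes tested was 1.03, above 0.80 for H1 and 0.84 for H2A. The 18 genes summed to 44.1 and 49.2 CPM in chow and to 64.5, 69.1 and 72.2 CPM on high fat, a 1.47-fold difference. The genes that made up most of the chow sum were near level. Hist1h2bc stood at 22.2 and 23.7 CPM in chow and at 27.3, 23.98 and 28.7 CPM on high fat (log2 difference 0.20 ± 0.10, adjusted p = 0.190). Hist2h2be stood at 10.7 and 13.7 CPM in chow and at 8.88, 9.51 and 10.2 CPM on high fat (log2 difference -0.32 ± 0.14, adjusted p = 0.133), and Hist3h2ba at 2.74 and 3.14 CPM and at 1.75, 2.52 and 2.11 CPM. Both of these were lower in every high-fat library without passing the test, but Hist2h2be passed it with totals without acinar and insulin genes (adjusted p = 0.0145).

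Of the 9 H2B genes tested 6 rose. Of the 9, 5 passed the filter only through their high-fat level, Hist2h2bb among them, and 5 of the 6 calls are theirs. Among all genes tested with a chow mean under 0.5 CPM 46.1% rose. Hist2h2bb had no read in either chow library and stood at 6.42, 8.09 and 7.90 CPM on high fat, at least 53.1-fold higher than the mean chow floor of 3 reads per library (log2 difference 3.08 ± 0.16, adjusted p = 4.2e-05). Hist1h2be rose from 6.87 and 7.06 CPM to 11.1, 12.1 and 10.1 CPM (log2 difference 0.60 ± 0.12, adjusted p = 0.0152). That call was lost when library totals were taken without acinar and insulin genes (adjusted p = 0.265) or without RNAs that lack a poly(A) tail and replication-dependent histones (adjusted p = 0.237). It was also lost without chow replicate 1 (adjusted p = 0.0579), high-fat replicate 1 (0.0508) or high-fat replicate 2 (0.0596).

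**Figure D3:**
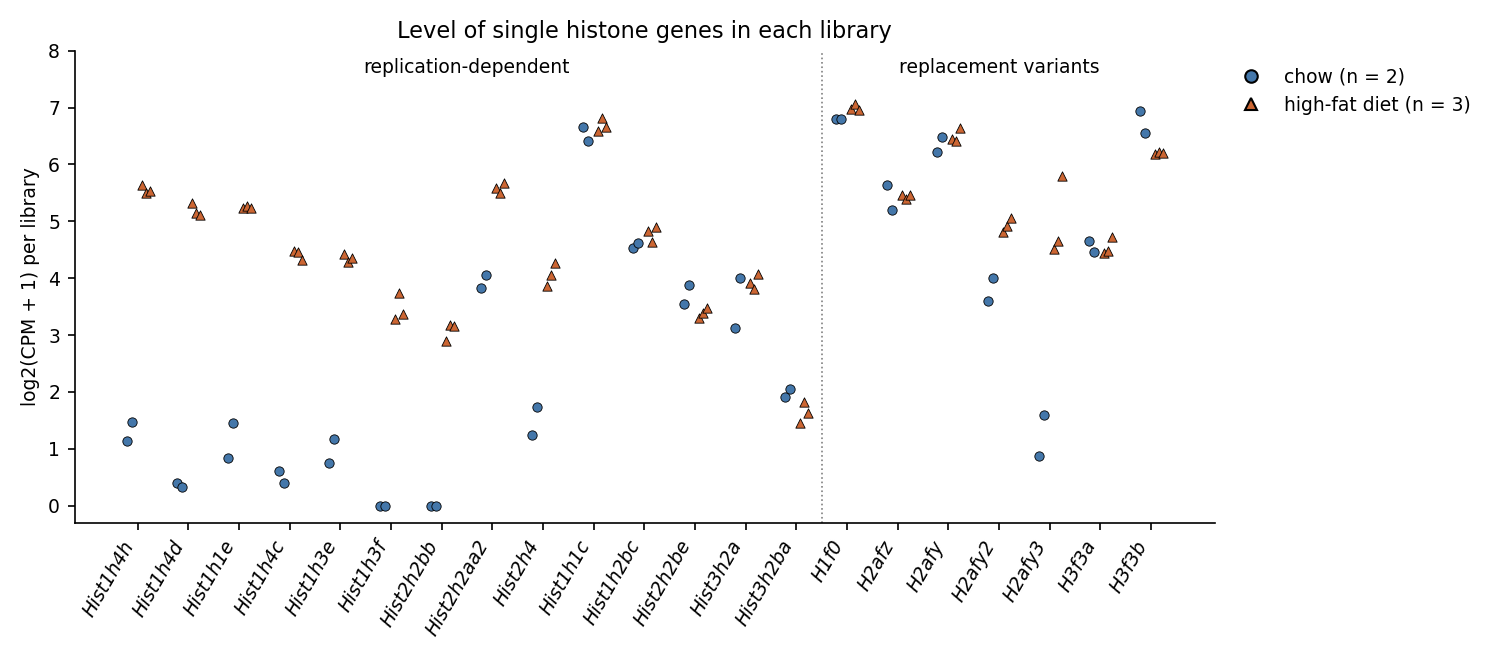
Level of 21 histone genes in each library as log2(CPM + 1), with 1 point per library (circles, 2 chow; triangles, 3 high-fat). The genes at the left are near 0 in chow and high in all 3 high-fat libraries, whereas Hist1h1c, Hist1h2bc and most replacement variants overlap or nearly so.

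Members grouped by the place of the stem-loop differed in the fold of their sums. The 23 genes whose annotated transcript ends under 100 bases after the stem-loop summed to 16.5 and 19.1 CPM in chow and to 126, 136 and 136 CPM on high fat, a 7.45-fold difference. The 23 whose annotated transcript runs on for 100 bases or more summed to 127 and 126 CPM in chow and to 294, 310 and 298 CPM on high fat, a 2.38-fold difference. The 23 with no match summed to 34.4 and 38.9 CPM in chow and to 60.3, 66.8 and 76.4 CPM on high fat, a 1.85-fold difference. Hist1h1c, with 840 bases annotated after its stem-loop, and Hist3h2a, with 1643, are in the long group and were not called, but so are Hist1h1e, with 1153, and Hist1h4d, with 770. The grouping therefore does not sort the members one by one. The sums rest on a few abundant genes. Hist1h1c gave 99.995 and 84.1 CPM of the chow sums of the long group. Of those with no match, Hist1h2bc gave 22.2 and 23.7 CPM and Hist2h2be 10.7 and 13.7 CPM. The median log2 differences had another order, at 1.26, 1.11 and 1.92 over the 14, 19 and 11 genes tested. Of the genes tested, 11, 8 and 9 passed the filter only through their high-fat level.

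Sequence sharing and position were looked at in the same way. The 26 genes with less than 50% of their 31-base words in other genes differed 1.92-fold in sum, and the 43 genes at 50% or more differed 9.005-fold. The difference was therefore present among the genes whose reads can best be told apart. The 56 genes of the large cluster on chromosome 13 differed 2.88-fold and the 10 genes of the cluster on chromosome 3 differed 2.98-fold. The pair on chromosome 11, Hist3h2a and Hist3h2ba, summed to 10.5 and 18.2 CPM in chow and to 15.8, 15.5 and 17.9 CPM on high fat, where the groups overlapped.

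H1f0, the H1 variant of resting cells, had the highest level per length of the replacement variants and stood at 111 and 110.5 CPM in chow and at 125, 132 and 123 CPM on high fat. Its log2 difference was 0.19 ± 0.08 (adjusted p = 0.124). Per kilobase of annotated exon the chow levels ran from Hist1h1c at 59.0 CPM per kb and H1f0 at 53.9 to H3f3b at 36.1, Hist2h2aa2 at 27.2 and H2afz at 23.8. On the high-fat diet the order was Hist1h4h at 98.1, Hist2h2aa2 at 89.4, Hist1h1c at 65.6 and H1f0 at 61.7 CPM per kb. H1fx, the other H1 variant expressed here, stood between 14.2 and 17.2 CPM in all 5 libraries, and the germ cell variants H1fnt and H1foo did not pass 0.296 CPM in any library. H2afb1, H2afb2, H2afb3 and H3f3c were likewise too low to test, and the antisense RNA H3f3aos, at 1.61 and 1.06 CPM in chow and at 2.06, 2.89 and 1.77 CPM on high fat, was not called.

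Of 12 replacement names tested, 2 rose (16.7%) and 1 fell, near the shares of all genes tested, of which 14.9% rose and 8.78% fell. With totals without acinar and insulin genes 2 rose and 4 fell. In that setting 812 of all 16939 genes tested rose and 5229 fell, in place of 2524 and 1487. H2afy2, which codes for macroH2A2, a large H2A variant found in silent chromatin, rose from 11.1 and 14.99 CPM to 27.2, 29.4 and 32.2 CPM (log2 difference 1.13 ± 0.14, adjusted p = 0.00263). It overlaps Aifm2 on the opposite strand, and since the handling of strand is not given, reads of the pair cannot be told apart. H2afy3 rose from 0.839 and 2.01 CPM to 21.9, 24.1 and 54.5 CPM (log2 difference 3.75 ± 0.40, adjusted p = 0.00141). It is annotated as a processed pseudogene inside Pvt1 on the opposite strand, and 31.2% of its 31-base words occur in other genes, H2afy2 among them. H2afy itself, which codes for macroH2A1, stood at 73.9 and 88.4 CPM in chow and at 86.0, 84.4 and 98.6 CPM on high fat and was not called.

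H3f3a and H3f3b code for the same protein, H3.3, the main H3 of cells that do not divide. H3f3b fell from 122 and 93.2 CPM to 72.0, 73.1 and 72.5 CPM (log2 difference -0.55 ± 0.12, adjusted p = 0.0194). The call did not hold with no filter on low values (adjusted p = 0.0776) or without high-fat replicate 1 (0.0622), 2 (0.0648) or 3 (0.0651). H3f3a stood at 24.1 and 21.0 CPM in chow and at 20.8, 21.2 and 25.5 CPM on high fat (log2 difference -0.01 ± 0.12, adjusted p = 0.974). With totals without acinar and insulin genes it was called lower, by a log2 difference of -0.40 (adjusted p = 0.0459). The pair gave 146 and 114 CPM in chow against 92.8, 94.3 and 98.0 CPM on high fat. In mean the H3.3 pair was 0.73 times as high on the high-fat diet, while the replication-dependent H3 sum was 18.2 times as high.

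The H2A variants with wide use were near level. H2afz, the variant at gene starts, stood at 49.0 and 35.6 CPM in chow and at 42.9, 40.9 and 43.1 CPM on high fat (log2 difference 0.02 ± 0.13, adjusted p = 0.932). With totals without acinar and insulin genes its log2 difference turned to -0.38 (adjusted p = 0.0469). H2afv, its close relative, was lower in every high-fat library, at 16.2 and 17.4 CPM in chow and at 13.9, 12.99 and 13.4 CPM (adjusted p = 0.0611). It was called lower with median-ratio scaling (adjusted p = 0.0321) and with the trimmed mean of M values (0.0351), and its log2 difference of -0.30 became -0.69 with totals without acinar and insulin genes (0.00526). H2afj was higher in every one, at 10.4 and 10.8 CPM in chow and at 13.6, 13.03 and 14.4 CPM (adjusted p = 0.0508), and was called with a pseudocount of 0.1 (0.0478) or a filter at 1 CPM (0.0468). H2afx, the variant that marks DNA breaks and the single replacement gene with a stem-loop match, stood at 7.23 and 12.9 CPM in chow and at 13.3, 10.6 and 12.5 CPM on high fat, where the groups overlapped (log2 difference 0.29 ± 0.22, adjusted p = 0.374). It was called higher without chow replicate 3 (adjusted p = 0.0315).

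Other RNAs that carry no poly(A) tail moved with the diet too. A list of 13 such RNAs summed to 9.81 and 16.4 CPM in chow and to 31420, 26587 and 20878 CPM on high fat. Of these, 7 of 7 tested rose, where 14.9% of all genes tested did. Rpph1, Rmrp, Scarna2 and Terc had chow means under 0.5 CPM and passed the filter only through their high-fat level. Of all genes tested with such a chow mean 46.1% rose. Rn7s1 and Rn7s2 had nearly equal high-fat values, at 11503 CPM each in high-fat replicate 1. Scarna2, a guide RNA of Cajal bodies, stood at 0.585 and 0.198 CPM in chow and at 82.4, 82.5 and 85.8 CPM on high fat, and Rmrp, the RNA of a nuclease, at 0.314 and 0.0405 CPM and at 622, 521 and 397 CPM. Rnu7, the U7 RNA that guides histone mRNA cutting, and Rnu11 were listed at 0 in all 5 libraries. Rnu12 and Vaultrc5 did not pass 0.0571 CPM in any library. The name codes of the samples also change with the diet. Diet and any difference in how the libraries were made therefore cannot be told apart for the replication-dependent genes.

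The genes that act on histone mRNA were read from the same fit. Of 15 genes for histone mRNA processing and the histone locus, all tested, 0 rose and 1 fell, where 14.9% of all genes tested rose and 8.78% fell, with a median log2 difference of 0.03 beside 0.05 for all genes tested. The one that fell was Casp8ap2, a protein of the histone locus body, at 15.6 and 16.5 CPM in chow and at 10.5, 12.95 and 11.5 CPM on high fat (log2 difference -0.44 ± 0.12, adjusted p = 0.0378). Its call was lost when any 1 library was left out and with no filter. Srrt, Cpsf2 and Sympk, which act on the cap and the cut end of mRNAs, were higher in every high-fat library without passing the test (adjusted p = 0.0604, 0.0746 and 0.101). Zfp473, Npat, Cpsf3 and Ncbp1 were also higher in every one and not called, while Slbp and Casp8ap2 were lower in every one. Of all genes detected in any library 21% lay above and 13.5% below in this way. Slbp, which binds the stem-loop, stood at 9.10 and 11.6 CPM in chow and at 8.003, 8.24 and 7.28 CPM on high fat (adjusted p = 0.107), and Npat, the activator of histone genes in S phase, at 27.0 and 26.6 CPM and at 28.1, 28.9 and 29.1 CPM.

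Of 25 histone chaperones and deposition factors 24 were tested, and 1 rose and 4 fell, beside the same 14.9% and 8.78% of all genes tested, with a median log2 difference of 0.03. Nap1l1, a chaperone of H2A and H2B, fell from 72.0 and 66.8 CPM to 31.4, 31.8 and 34.1 CPM (log2 difference -1.07 ± 0.08, adjusted p = 3.2e-04). Dek, which chaperones H3.3, fell by 0.73 on the log2 scale (adjusted p = 0.00483), Atrx, which deposits H3.3 with Daxx, by 0.47 (adjusted p = 0.024), and Rbbp7, which binds H4, by 0.34 (adjusted p = 0.027). Ipo4, an importer of H3 and H4, rose by 0.35 (adjusted p = 0.037). The Ipo4 call was lost under each of the 4 other scalings, and those of Atrx and Rbbp7 without chow replicate 3 or any high-fat replicate (adjusted p from 0.0507 to 0.0929). The chromatin assembly factor genes Chaf1a and Chaf1b, which deposit newly made H3 and H4 behind the replication fork, were not called.

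Cell cycle genes were set beside the histones because S phase is when the replication-dependent class is made. Of 26 such genes 25 were tested, and 2 rose and 0 fell, again beside 14.9% and 8.78% of all genes tested, with a median log2 difference of 0.26. E2f1, a transcription factor of the G1 to S transition, rose from 3.81 and 3.86 CPM to 10.95, 12.9 and 12.1 CPM (log2 difference 1.42 ± 0.12, adjusted p = 5.6e-04). Birc5, needed for cell division, rose by 0.63 (adjusted p = 0.0294). Its chow mean was 0.175 CPM, so it passed the filter only through its high-fat level. The call was lost without chow replicate 1 or any high-fat replicate (adjusted p from 0.0622 to 0.129). Pcna, the clamp of DNA polymerase, and Mcm2, of the replication helicase, did not pass the test (adjusted p = 0.0532 and 0.0757). Pcna was called higher without chow replicate 1 (adjusted p = 0.037) and Mcm2 without chow replicate 3 (0.0472).

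Mki67, a marker of dividing cells, stood at 2.63 and 3.12 CPM in chow and at 3.84, 7.55 and 16.6 CPM on high fat (log2 difference 1.22 ± 0.47, adjusted p = 0.105), and Top2a was spread in the same way, at 2.51 and 2.33 CPM and at 2.68, 5.31 and 10.1 CPM. The high-fat libraries did not keep this order in every gene of the list. Pcna stood at 8.96 and 6.30 CPM in chow and at 12.96, 9.99 and 12.3 CPM on high fat, and Mcm2 at 4.29 and 5.67 CPM and at 8.10, 6.68 and 6.81 CPM. The part of cell division in the histone values was not tested.

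**Figure D4:**
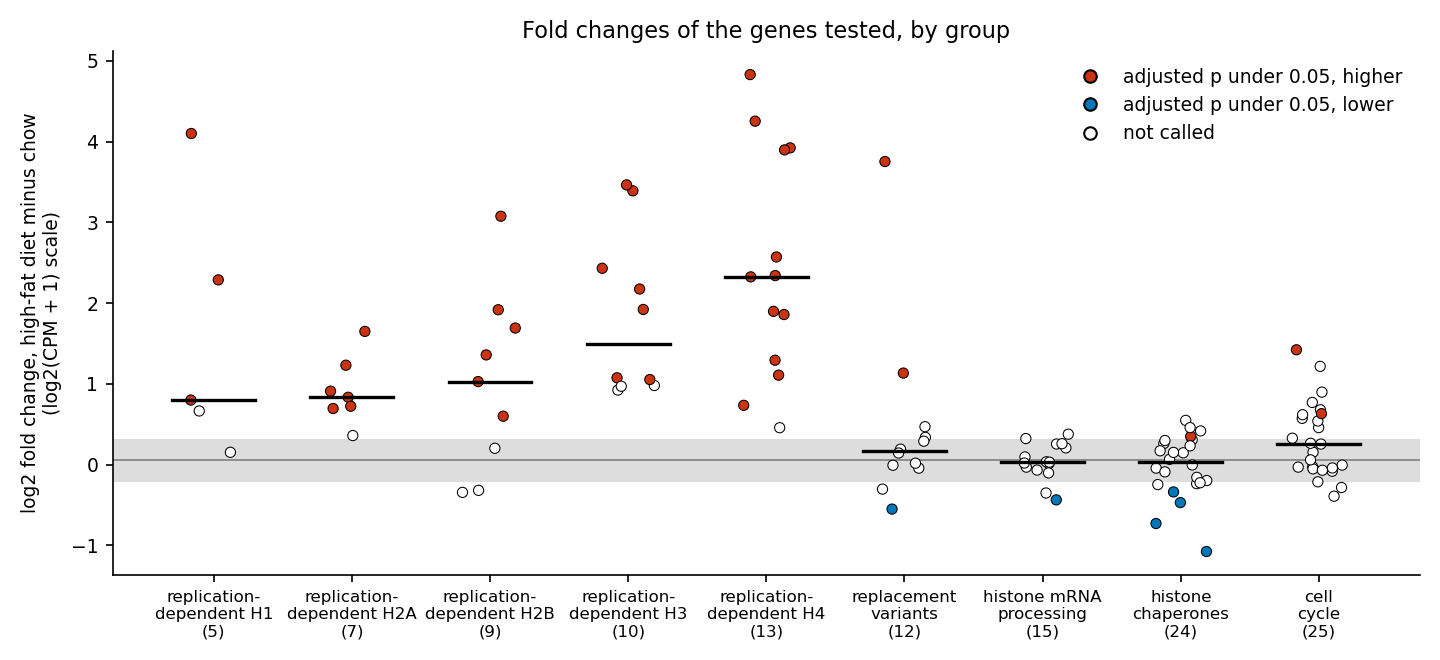
Log2 differences (high-fat minus chow, log2(CPM + 1) scale) of the genes tested in each group, with filled points for calls and bars for medians. The gray line and band are the median (0.05) and quartiles (-0.20 and 0.30) of all 16939 genes tested, and 12 of the 13 H4 genes were called higher, while the processing, chaperone and cell cycle genes center near the band.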

How the data were processed

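RNA sequencing of mouse islets was deposited as 1 table of 48321 gene names and 6 columns. It was made by the authors with Partek, per the submitters' processing notes. Not given in the sources used here are its version, the aligner, genome build, counting, strand handling and library type. Deposited values were read as CPM plus 1, since 1 was the minimum of each column, and 1 was subtracted. The CPM of a column summed to 674482 to 963615. Of the low values 64.6% to 69.8% were whole reads within 0.1, so reads were not recovered and no count model was used. Samples were numbered within a diet in deposit order, and the number pairs nothing. No label states that each came from its own animal, so the spread behind the p-values may be technical.

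Differences were tested with limma 3.58.1 (R 4.3.3) on log2(CPM + 1), with a mean-variance trend, for genes averaging 0.5 CPM or more in 5 libraries, and p-values were adjusted by Benjamini-Hochberg at 0.05. A log2 difference on this scale understates the change of low genes. The fit was tested on simulated data. Alternatives were 4 scalings, 2 pseudocounts, 2 filters, all 6 columns, no trend, and each library left out. GENCODE M21 (GRCm38) gave stem-loops, lengths, overlaps and shared 31-base words and may differ from the authors' annotation. RefSeq gave promoters.

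The members and lists were chosen with earlier results of these data known. Named were the 4 highest replication-dependent genes of each type, the 5 with the smallest p, every replacement variant with a mean of at least 0.5 CPM, and the 4 genes with the smallest p of each list. Other genes, such as Hist1h4i, Hist4h4, Hist3h2ba, Slbp, Npat, Mki67 and Top2a, were named after their values were seen.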

Additional observations from a re-analysis of the deposited data

How the results depend on the processing

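No paired analysis was possible because the replicate numbers follow deposit order only and pair no samples. The call of 34 replication-dependent genes as higher came to 22 with no filter, where 67 of the genes were tested, to 25 with a mean of at least 1 CPM, and to 32 to 35 under every other alternative that kept all libraries. Leaving out 1 library gave 23 to 32. With chow replicate 1 or 3 left out the lone chow sample is assumed to vary like the others. All 22 and all 25 were among the 34. The count lower, 0 at first, was 2 with libraries scaled without acinar and insulin genes and 1 with all 6 columns. The calls over all genes moved too. Of all genes tested 14.9% rose at first, 4.79% without acinar and insulin genes, 25.3% with all 6 columns and 2.74% with no filter. In the same order 1487, 5229 and 2796 of 16939 genes fell, and 573 of 39352 with no filter. The counts of each group here and below are to be read beside these. Replacement variants called higher numbered 4 with all 6 columns and 2 to 3 with a library left out. Those called lower numbered 2 with median-ratio scaling, trimmed mean of M values or all 6 columns, 4 without acinar and insulin genes in the scaling, 0 with no filter, and 0 to 1 with a library left out.

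The log2 ratio of the replication-dependent sum, 1.47, was 1.39 with median-ratio scaling and with trimmed mean of M values, 1.06 without acinar and insulin genes, 1.27 without RNAs that lack a poly(A) tail and replication-dependent histones, and 1.45 to 1.5006 with a library left out. That of the replacement sum, 0.13, was 0.0494 with median-ratio scaling and 0.0476 with trimmed mean of M values, turned to -0.28 without acinar and insulin genes and to -0.0707 without RNAs that lack a poly(A) tail, and was 0.08 to 0.16 with a library left out. H2afz turned to -0.38 without acinar and insulin genes. These scalings shift all genes alike, so the difference between the classes stayed at 1.34.

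Histone mRNA processing genes called higher were 3 with all 6 columns and 0 to 1 with a library left out. Those called lower were 5 without acinar and insulin genes, 2 with all 6 columns, 0 with no filter, no trend or the scaling without RNAs that lack a poly(A) tail, and 0 with any library left out. Chaperones called higher were 0 under all 4 scalings, no filter and no trend, 6 with all 6 columns, and 0 to 8 with a library left out. Those called lower were 10 without acinar and insulin genes, 2 with no filter and 2 to 4 with a library left out. Cell cycle genes called higher were 4 without RNAs that lack a poly(A) tail, 1 with no filter or a mean of at least 1 CPM, 6 with all 6 columns, and 1 to 5 with a library left out. Those called lower were 1 with median-ratio scaling, trimmed mean of M values or all 6 columns, and 2 without acinar and insulin genes. With all 6 columns the averaged chow column counts as a replicate though it holds no data of its own. It narrows the chow spread, so the counts of that setting are not valid tests. The cause of the other moves was not tested. For the named genes 585 alternatives kept direction and side of the threshold, 49 lost the call, 23 gained one and 1 turned sign. Levels under 3 reads, up to 0.16 CPM, were not detectable at this depth.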
